A study of Homo sapiens with 12 samples.

Results

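PIK3CA, PIK3CB, PIK3R1, AKT1, AKT2, MTOR, RPTOR, RICTOR and TSC2 encode core proteins of the PI3K, AKT and mTOR pathway. They are 9 of the 57134 gene rows of a table of estimated counts and were chosen by name. The libraries hold total RNA of HCT116, a human colon carcinoma line that carries a mutant PIK3CA allele, and were made with MATQ-seq, a random-primed amplification of total RNA. In scDASH, Cas9 cuts library molecules that derive from ribosomal RNA. The groups are DASHed mini-bulk (2 libraries), untreated mini-bulk (2), DASHed single cells (4) and untreated single cells (4), with sorted single cells. No genotype, drug or time differs between the groups, and the labels name neither separate cultures nor the number of cells in a mini-bulk library.

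Insulin-like and epidermal growth factors activate receptors that recruit PI3K, a dimer of a regulatory subunit such as that from PIK3R1 and a catalytic subunit such as those from PIK3CA and PIK3CB. PI3K makes a phosphoinositide that brings AKT kinases to the membrane, and AKT phosphorylates and restrains TSC2, which otherwise switches off the small GTPase RHEB and with it mTOR. The mTOR kinase works with RPTOR in complex 1, which promotes protein synthesis, and with RICTOR in complex 2, which phosphorylates AKT. In colon epithelium and its cancers the pathway drives growth and survival, and activating PIK3CA mutations are common there.

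Of the 9 genes 4 are GC-poor and 4 GC-rich, with MTOR between them, and the differences described further on are set beside this composition. The median GC content of the GENCODE v29 transcripts is 38.2% for RICTOR, 39.0% for PIK3CA, 39.2% for PIK3R1 and 39.9% for PIK3CB. It is 46.8% for MTOR, 57.7% for RPTOR, 59.4% for AKT2, 60.3% for AKT1 and 60.6% for TSC2. The stretches printed here are the 90 coding bases at the middle of the coding sequence of 5 of the genes, 5′ to 3′. Every G and C is in capitals, so that the difference between the GC-poor and the GC-rich genes can be seen. They were read from the principal transcripts of GENCODE v29 (GRCh38).
RICTOR: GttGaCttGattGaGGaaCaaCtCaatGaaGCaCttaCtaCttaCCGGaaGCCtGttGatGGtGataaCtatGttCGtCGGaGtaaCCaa
PIK3R1: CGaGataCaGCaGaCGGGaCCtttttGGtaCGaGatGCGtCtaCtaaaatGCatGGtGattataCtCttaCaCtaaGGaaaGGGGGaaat
MTOR: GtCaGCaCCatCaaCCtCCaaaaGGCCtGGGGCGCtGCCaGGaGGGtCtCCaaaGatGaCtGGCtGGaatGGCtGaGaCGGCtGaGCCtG
AKT1: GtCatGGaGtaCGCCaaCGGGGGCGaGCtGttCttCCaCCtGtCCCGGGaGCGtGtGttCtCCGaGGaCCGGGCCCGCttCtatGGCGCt
TSC2: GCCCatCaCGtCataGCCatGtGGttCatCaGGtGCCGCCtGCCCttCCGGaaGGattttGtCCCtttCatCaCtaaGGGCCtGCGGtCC
The RICTOR stretch lies in exon 26, on the minus strand at chr5:38955597-38955686. The PIK3R1 stretch spans the junction of exons 9 and 10, on the plus strand at chr5:68293123-68293315. Those of MTOR (exons 25 and 26, minus strand, chr1:11204638-11209335), AKT1 (exons 7 and 8, minus strand, chr14:104773518-104773938) and TSC2 (exons 24 and 25, plus strand, chr16:2076093-2076502) also cross a junction. G and C make up 42.2% of the RICTOR stretch, 43.3% of the PIK3R1 stretch, 61.1% of the MTOR stretch, 65.6% of the AKT1 stretch and 57.8% of the TSC2 stretch. Over the whole coding sequence the shares are 40.6% for RICTOR, 42.0% for PIK3R1, 53.2% for MTOR, 59.7% for AKT1 and 60.2% for TSC2. MTOR thus lies between the others by its transcripts and whole coding sequence, but its printed stretch is GC-richer than that of TSC2.

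Estimated counts added up to 837614 and 1087711 per DASHed mini-bulk library, against 5803180 and 6026584 in the untreated ones. They were 1018874 to 1573651 in DASHed single cells and 5545355 to 6008358 in untreated single cells. Same-numbered DASHed and untreated cells deviated from their group means together (r = 0.916 to 0.923 over 9356 genes), and the labels do not say whether such a pair is 1 cell, so both groups may hold the same cells. Levels are given as TMM-scaled CPM, estimated counts relative to a library size that was adjusted so that typical genes match across all 12 libraries. A count of 3 is worth 0.768 to 1.99 on this scale. Epithelial markers (EPCAM, CDH1, KRT8, KRT18, KRT19) summed to 677 to 760 CPM in DASHed mini-bulk, 326 to 351 in untreated mini-bulk, 494 to 2437 in DASHed cells and 350 to 1509 in untreated cells. EPCAM was at 0 in DASHed cell 2 and CDH1 in DASHed cells 1 and 2. The markers of leukocytes, T cells, endothelium and fibroblasts summed to 0 to 18.0 in every library, and the T-cell gene CD3E was at 0 throughout.

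In the mini-bulk libraries the 4 GC-rich genes, both AKT kinases, RPTOR and TSC2, stood higher after depletion, and the GC-poor PI3K subunit genes and RICTOR stood lower, relative to the typical gene. The test was edgeR's quasi-likelihood test over 10083 genes, with Benjamini-Hochberg adjustment over all of them and a threshold of 0.05. Of the 8 genes that passed its expression filter, 6 passed the threshold, as did 29.7% of all tested genes. These were 4 that rose and 2 that fell, where 9.9% of tested genes rose and 19.8% fell. Without untreated library 1, 1 of 7 tested pathway genes and 1417 of all 8518 passed, and without untreated library 2, 1 of 7 and 1426 of 8410. The median log2 fold change of the 8, DASHed over untreated, was 0.56, beside 0.03 over all tested genes. Fold changes and mini-bulk count ratios took TMM factors from the 4 mini-bulk libraries alone (1.96 and 2.09 DASHed, 0.442 and 0.553 untreated). The CPM values took factors from all 12 libraries (1.69 and 1.80 DASHed, 0.455 and 0.560 untreated), so their ratios differ from the fold changes. Every one of the 9 had both DASHed libraries on 1 side of both untreated ones, as did 71.7% of tested genes. Since no separate cultures are named, the p-values take in no more than the spread of these libraries, part of which may be technical. Mini-bulk libraries pool cells, so fewer cells with a transcript and less of it per cell cannot be told apart.

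**Figure D1:**
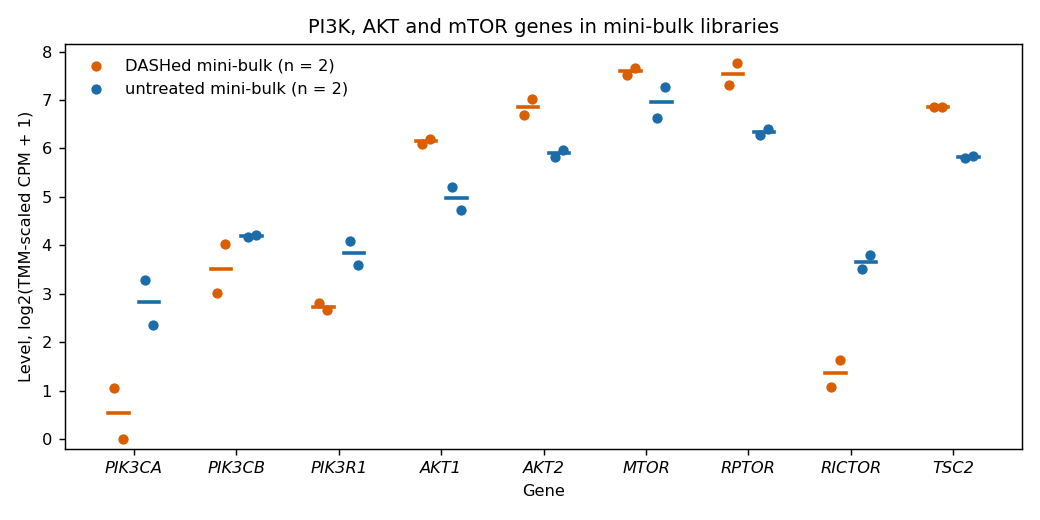
Level of each gene in every mini-bulk library, as log2(TMM-scaled CPM + 1), with each point a library and each bar the mean of the 2 libraries of a group. AKT1, AKT2, MTOR, RPTOR and TSC2 lie higher in both DASHed libraries than in either untreated one, and PIK3CA, PIK3CB, PIK3R1 and RICTOR lie lower in both.

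The PI3K subunit genes had low counts. PIK3CA, the catalytic subunit alpha (ENSG00000121879.4, chr3:179148114-179240093, plus strand), had 2 and 0 estimated counts in the DASHed mini-bulk libraries, against 24 and 13.5 in the untreated ones. These are levels of 1.09 and 0 CPM after depletion, against 8.75 and 4.14 CPM without it. The gene did not pass the expression filter. Its summed TMM-scaled counts were 12.2 times lower in the DASHed libraries, with an exact 95% counting interval of 3.15 to 105 times. Where other settings let the gene be tested, the log2 fold change was −3.49 without the filter (edgeR adjusted p = 0.00782) and −3.55 with DESeq2 (adjusted p = 0.114). It was −7.02 without the first DASHed library (adjusted p = 0.0147), which leaves DASHed counts at 0 so that the fitted value is no bound, and −2.59 without the second (adjusted p = 0.0862). The value is uncertain, since 35.8% of its exonic bases are shared with KCNMB3 on the opposite strand and 20.8% of its 31-base words occur in other genes. The deposited table lists KCNMB3 at 0 in all 4 mini-bulk libraries, and the pseudogenes KCNMB3P1 and AP000547.1, which hold most of the shared words, at 0 in all 12 libraries.

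PIK3CB, the catalytic subunit beta (ENSG00000051382.8, chr3:138652699-138834938, minus strand), had 7.07 and 15.3 CPM in the DASHed mini-bulk libraries, against 17.1 and 17.6 CPM in the untreated ones. The libraries did not overlap, but the first DASHed library was well below the second. The log2 fold change was −0.89 (SE 0.44, edgeR adjusted p = 0.155), which did not pass the threshold. It was −0.28 (adjusted p = 0.670) without the first DASHed library.

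PIK3R1, the regulatory subunit (ENSG00000145675.14, chr5:68215720-68301821, plus strand), had 5.99 and 5.30 CPM in the DASHed mini-bulk libraries, against 15.9 and 11.1 CPM in the untreated ones. Both DASHed values lay under both untreated values. Its fall, a log2 fold change of −1.48 (SE 0.48, edgeR adjusted p = 0.0447), rests on 11 and 8 estimated counts in the DASHed libraries. The call was lost when any 1 of the 4 libraries was left out (adjusted p = 0.0542 to 0.340) and with DESeq2 (adjusted p = 0.245).

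Both AKT kinases rose. AKT1 (ENSG00000142208.16, chr14:104769349-104795751, minus strand) had 67.3 and 72.5 CPM in the DASHed mini-bulk libraries, against 36.0 and 25.4 CPM in the untreated ones. Its raw estimates were also higher after depletion, at 124 and 109 counts against 98.6 and 82.6, although the DASHed totals were several times smaller. The log2 fold change was 0.95 (SE 0.25, edgeR adjusted p = 0.0193), a 1.94-fold rise, and was not past the threshold without the second untreated library (0.49, adjusted p = 0.424).

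AKT2 (ENSG00000105221.16, chr19:40230317-40285536, minus strand) had 102 and 129 CPM in the DASHed mini-bulk libraries, against 55.8 and 61.6 CPM in the untreated ones. The lower DASHed library was well above the higher untreated one. The log2 fold change was 0.74 (SE 0.20, edgeR adjusted p = 0.0216). Without the second DASHed library the adjusted p was 0.0508, without the first untreated library 0.290 and without the second untreated library 0.247.

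MTOR, the kinase shared by both mTOR complexes (ENSG00000198793.12, chr1:11106535-11262507, minus strand), had 182 and 202 CPM in the DASHed mini-bulk libraries, against 98.4 and 154 CPM in the untreated ones. The untreated libraries differed from each other by more than the DASHed ones did. The log2 fold change of 0.38 (SE 0.21, edgeR adjusted p = 0.201) did not pass the threshold. Without the first untreated library it was −0.030.

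RPTOR, the scaffold that defines mTOR complex 1 (ENSG00000141564.14, chr17:80544819-80966371, plus strand), had 158 and 217 CPM in the DASHed mini-bulk libraries, against 76.3 and 83.9 CPM in the untreated ones. Its raw estimates were 291 and 327 counts after depletion, against 209 and 272 without it. The rise was 1.99-fold, a log2 fold change of 0.996 (SE 0.20, edgeR adjusted p = 0.00647). The adjusted p was 0.0578 without the first untreated library.

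RICTOR, the scaffold that defines mTOR complex 2 (ENSG00000164327.12, chr5:38937919-39074408, minus strand), moved the other way. It had 1.10 and 2.12 CPM in the DASHed mini-bulk libraries, against 10.3 and 12.9 CPM in the untreated ones. The estimates were 2 and 3.2 counts after depletion, against 28.3 and 42 counts without it. This fall, a log2 fold change of −3.13 (SE 0.64), passed the threshold (edgeR adjusted p = 0.00759). The summed TMM-scaled counts were 9.25 times lower (exact 95% counting interval 3.78 to 29.4 times). On total counts alone the difference was −1.15 and did not pass (adjusted p = 0.197). Without either untreated library RICTOR did not pass the expression filter.

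TSC2, the GTPase-activating subunit of the TSC complex (ENSG00000103197.17, chr16:2047465-2089487, plus strand), had 116 and 115 CPM in the DASHed mini-bulk libraries, against 54.9 and 56.8 CPM in the untreated ones. The 2 libraries of each group lay within a few percent of each other. The log2 fold change was 0.81 (SE 0.18, edgeR adjusted p = 0.0102), a 1.76-fold rise. With 1 untreated library left out the spread comes from the DASHed libraries over all tested genes, and not from TSC2 alone. The log2 fold change was then 0.67 without the first and 0.60 without the second, neither past the threshold.

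For the GC-rich and the GC-poor genes the direction of these differences followed the GC content of the transcripts, as it tended to over all genes. MTOR did not follow it. Its GC content of 46.8% lay under the median of all tested genes (51.4%), while its log2 fold change was 0.38, not past the threshold. Spearman's rho between log2 fold change and GC content was 0.79 across the 10083 tested genes, with genes not being independent replicates. Within the GC range of AKT1, AKT2, RPTOR and TSC2, 27.2% of 1100 tested genes rose and 0.0909% fell. The median log2 fold change there was 0.76 (interquartile range 0.50 to 0.98). AKT2 (0.74) lay just under that median, TSC2 (0.81) and AKT1 (0.95) between it and the upper quartile, and RPTOR (0.996) just above the quartile. Within the GC range of RICTOR, PIK3R1 and PIK3CB, none of 391 tested genes rose and 58.1% fell, with a median of −2.02 (interquartile range −2.63 to −1.34). Against this range PIK3R1, at −1.48, lay inside, PIK3CB, at −0.89, above and RICTOR, at −3.13, below.

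With the GC trend of each library removed, 3.92% of tested genes passed the threshold, 1.44% higher and 2.48% lower in the DASHed libraries. Among the pathway genes MTOR alone passed, with a log2 fold change of 1.10 (SE 0.21, edgeR adjusted p = 0.0210). The correction used the median GC content of a gene's transcripts, which is 46.8% for MTOR, while its coding sequence holds 53.2%. Whether the MTOR call depends on the GC value used was not tested. The 6 genes called before were not past the threshold with the trend removed. AKT1 stood at 0.13 (adjusted p = 0.880), AKT2 at −0.060 (0.927), RPTOR at 0.28 (0.508) and TSC2 at −0.015 (0.983). RICTOR stood at −1.28 (SE 0.68, adjusted p = 0.413) and PIK3R1 at 0.29 (adjusted p = 0.860). PIK3CB, negative before, stood at 0.82 (SE 0.46, adjusted p = 0.437).

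**Figure D2:**
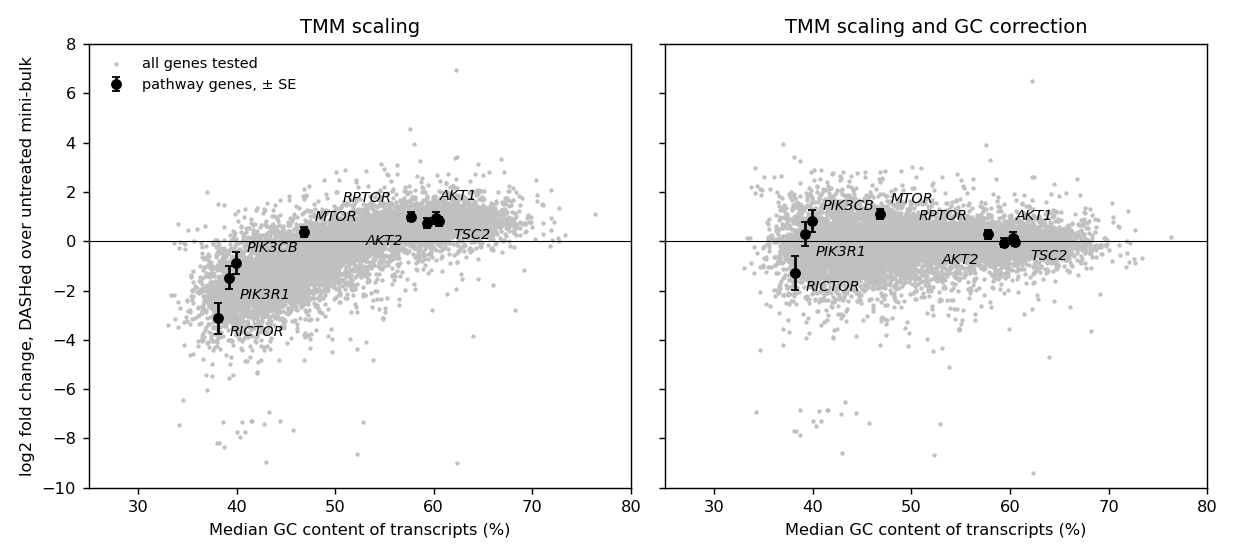
Log2 fold change of DASHed over untreated mini-bulk libraries against the median GC content of each gene's transcripts (%), with TMM scaling (left) and with the GC trend of each library removed as well (right). Grey points are the 10083 tested genes and black points the 8 pathway genes ± SE. At left RICTOR, PIK3R1 and PIK3CB lie below 0 and the other 5 above it, and at right MTOR (1.10) is the pathway gene that passed the threshold.

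Scaling sets where 0 lies. On total counts alone the median tested gene stood at 2.04 on the log2 scale, and all differences shift by about that much. There PIK3CB stood at 1.14 and PIK3R1 at 0.55, both positive but under the median gene. Every direction given for the mini-bulk genes is therefore relative to the typical gene.

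Per kilobase of principal transcript, a scale that allows for length but not for GC content, the same 5 genes led in both mini-bulk groups. PIK3CB, PIK3R1, RICTOR and PIK3CA, which came last, are the GC-poor genes, and the part of GC content in this order was not tested. The level of PIK3CA is also uncertain because of its shared bases. In the DASHed libraries the order was RPTOR (29.3 ± 6.47 CPM per kilobase, SD, n = 2), MTOR (22.2 ± 1.62), AKT2 (21.7 ± 3.63), TSC2 (18.7 ± 0.116) and AKT1 (17.9 ± 0.934). Neighbours in that run differed by less than the sum of their SDs. PIK3CB (1.89 ± 0.977), PIK3R1 (0.805 ± 0.0688), RICTOR (0.169 ± 0.0753) and PIK3CA (0.0598 ± 0.0846) followed, and of these neighbours RICTOR and PIK3CA differed by less than that sum. In the untreated libraries the order was MTOR (14.5 ± 4.48), RPTOR (12.5 ± 0.830), AKT2 (11.1 ± 0.771), TSC2 (9.06 ± 0.211), AKT1 (7.84 ± 1.90), PIK3CB (2.93 ± 0.0496), PIK3R1 (1.92 ± 0.491), RICTOR (1.22 ± 0.193) and PIK3CA (0.709 ± 0.358). There the steps MTOR to RPTOR, RPTOR to AKT2, TSC2 to AKT1 and RICTOR to PIK3CA stayed within the sum of the SDs. The gap between AKT1 and PIK3CB was the widest step down in both groups in CPM per kilobase.

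In single cells AKT1, AKT2, MTOR, RPTOR and TSC2 had counts in all 8 libraries, RICTOR in 7, PIK3CB in 5, PIK3R1 in 2 and PIK3CA in none. Each library is 1 cell and no culture is named, so each group is 1 sample and no test was made. Summed over cells, a gene's share of the counts was set against the median ratio of shares of 13509 genes, 2.62, and the exact 95% intervals cover counting error only. Of the 8 genes with counts, 5 were above the median gene, as are 50% of all genes by construction. RPTOR alone was over 2-fold above it, as were 11.6% of genes, and RICTOR alone over 2-fold below it, as were 27.7%.

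**Figure D3:**
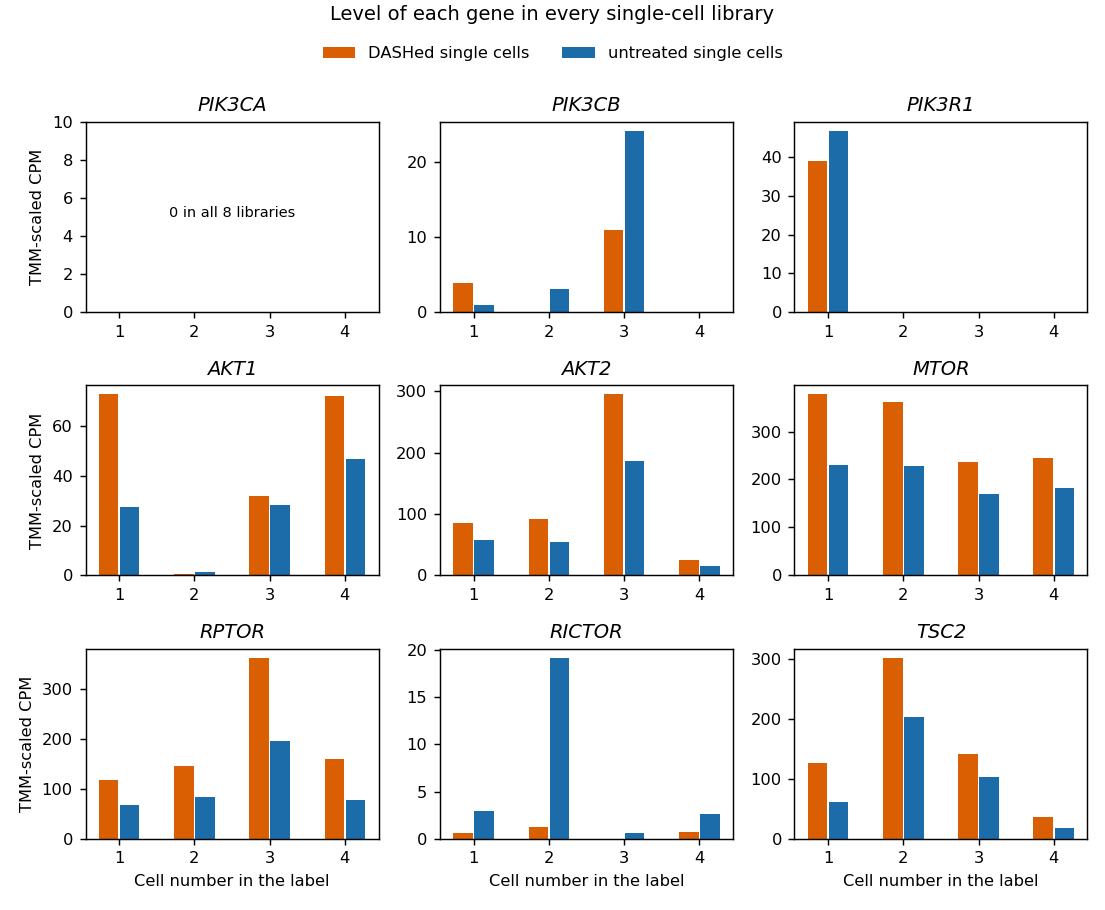
Level of each gene (TMM-scaled CPM, linear axes that differ between panels) in the 4 DASHed and the 4 untreated single-cell libraries, by the cell number in the labels. MTOR is spread over all cells, PIK3R1 is seen in cell 1 of each group, RICTOR is highest in untreated cell 2 (19.2 CPM), and PIK3CA is at 0 in all 8.

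PIK3CA had no count in any of the 8 cells. Of 4346 genes with 20 to 60 counts in the untreated mini-bulk libraries together, the range in which PIK3CA falls, 73 (1.68%) likewise had none, as did 1.55% of all genes tested in mini-bulk. Its level is therefore below what a count of 3 is worth in every cell, and absence is not shown.

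PIK3CB had 3.82, 0, 11.0 and 0 CPM in DASHed cells 1 to 4, against 0.927, 3.07, 24.1 and 0 CPM in untreated cells 1 to 4. Cell 3 was the highest in each group and cell 4 had none in either. The summed ratio was 1.65 times below the median gene (95% interval 1.12 to 2.47 times). This direction rests on untreated cell 3, without which the log2 ratio was 1.57 in place of −0.72. It was −2.23 without DASHed cell 3 and −0.058 without DASHed cell 4.

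PIK3R1 was seen in cell 1 alone in each group, at 39.1 CPM in DASHed cell 1 and 46.8 CPM in untreated cell 1, which are 82 and 151 estimated counts. The other 3 cells of each group were at 0. Relative to the median gene the summed ratio was 0.874 (95% interval 0.660 to 1.15), an interval that includes 1. The log2 ratio of −0.19 was 0.50 without DASHed cell 3 and 0.47 without DASHed cell 4.

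AKT1 had 72.7, 0.543, 31.9 and 72.3 CPM in DASHed cells 1 to 4, against 27.6, 1.28, 28.4 and 46.8 CPM in untreated cells 1 to 4. Cell 2 was low in both groups, with 1 and 5 estimated counts. The highest DASHed cell was 134 times the lowest, and the highest untreated cell 36.6 times the lowest. Summed over cells, AKT1 stood at 1.86 of the median gene (95% interval 1.62 to 2.14).

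AKT2 had 85.4, 92.4, 295 and 25.6 CPM in DASHed cells 1 to 4, against 58.1, 55.1, 186 and 15.7 CPM in untreated cells 1 to 4. The order was led by cell 3 and closed by cell 4 in both groups. The highest cell was 11.5 times the lowest among DASHed cells and 11.9 times among untreated cells. Its summed ratio was 1.74 of the median gene (95% interval 1.61 to 1.89). Without DASHed cell 3 the log2 ratio was −0.024, in place of 0.80, and without untreated cell 3 it was 1.63.

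MTOR had the narrowest spread over cells of the genes seen in every cell. It stood at 377, 362, 237 and 244 CPM in DASHed cells 1 to 4, against 230, 228, 170 and 181 CPM in untreated cells 1 to 4. The lowest DASHed cell (237 CPM) was just above the highest untreated one (230 CPM), and the share of all genes that do so was not determined. Among DASHed cells the highest was 1.60 times the lowest, and among untreated cells 1.35 times. Against the 200 genes nearest in count the log2 ratio was −0.00048, in place of 0.595. The summed ratio was 1.51 of the median gene (95% interval 1.43 to 1.59).

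RPTOR had 117, 145, 362 and 160 CPM in DASHed cells 1 to 4, against 66.8, 84.2, 196 and 77.6 CPM in untreated cells 1 to 4. Each DASHed cell was above its same-numbered untreated cell, as was also so for AKT2, MTOR and TSC2. The share of all genes for which this holds was not determined. Cell 3 was the highest in both groups. Summed over cells, RPTOR stood at 2.01 of the median gene (95% interval 1.88 to 2.15, which includes 2).

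RICTOR had 0.584, 1.22, 0 and 0.750 CPM in DASHed cells 1 to 4, against 2.97, 19.2, 0.581 and 2.65 CPM in untreated cells 1 to 4. Each DASHed cell was below its same-numbered untreated cell, and the share of all genes for which this holds was not determined. All 4 DASHed levels, and that of untreated cell 3, lay under what a count of 3 is worth. The 4 DASHed cells together held 5 rounded counts and the 4 untreated cells 97, of which 74.9 estimated counts lay in untreated cell 2. The summed ratio was 12.1 times below the median gene (95% interval 4.99 to 38.0 times), and the log2 ratio of −3.59 was −1.94 without untreated cell 2.

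TSC2 had 126, 302, 142 and 35.7 CPM in DASHed cells 1 to 4, against 61.2, 204, 103 and 18.4 CPM in untreated cells 1 to 4. Cell 2 was the highest and cell 4 the lowest in both groups. Its summed ratio was 1.47 of the median gene (95% interval 1.36 to 1.58). Without DASHed cell 2 the log2 ratio was 0.13, in place of 0.55, and without untreated cell 2 it was 1.24.

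The cell with the highest level had the same number in both groups for 7 of the 8 genes with counts, as it had for 77.2% of 13509 genes. AKT1 was the exception, with DASHed cells 1 and 4 at nearly the same level. Across all genes the log2 ratio of the single cells also followed GC content (Spearman's rho 0.69, over genes and not replicates). Against the 200 genes nearest in GC content, the log2 ratio was 0.10 for AKT1, 0.02 for AKT2, 0.28 for RPTOR and −0.27 for TSC2, and 1.08 for MTOR. On that footing RICTOR stood at −1.77, PIK3CB at 0.80 and PIK3R1 at 1.26. These references also used the median over transcripts, 46.8% for MTOR, beside 53.2% in its coding sequence.

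**Figure D4:**
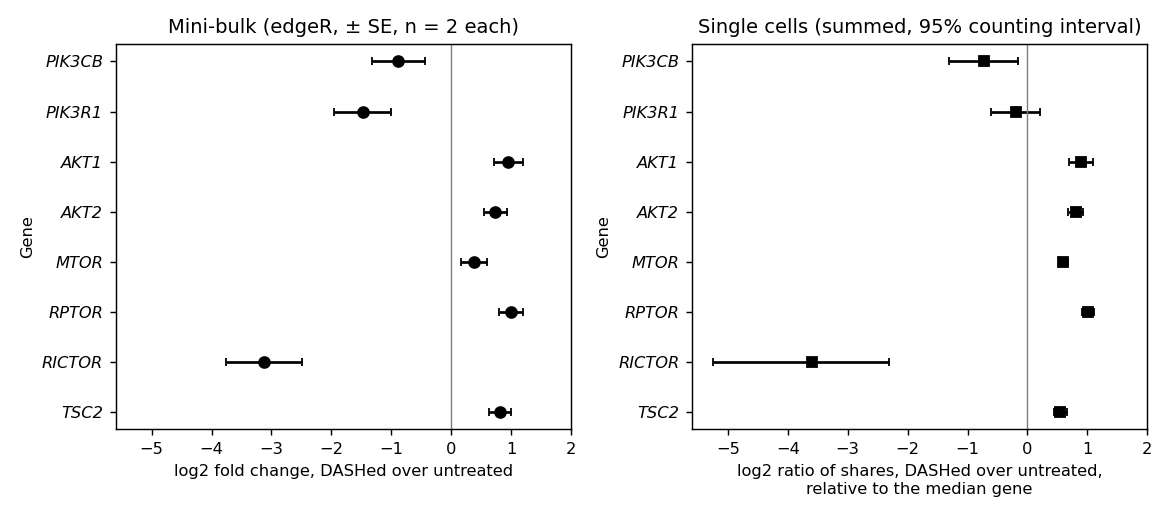
Log2 differences of DASHed over untreated libraries for the 8 genes with values, from edgeR in mini-bulk (left, ± SE, n = 2 each) and as summed single-cell shares relative to the median gene (right, 95% counting interval). AKT1, AKT2, MTOR, RPTOR and TSC2 lie above 0 in both panels, RICTOR lies furthest below 0 in both, and values are relative to the typical gene, since PIK3CB and PIK3R1 are above 0 on total counts alone in both inputs.

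The deposited counts found 9 and 8 of the 9 genes in the DASHed mini-bulk libraries and all 9 in each untreated one. In DASHed cells 1 to 4 they found 8, 6, 6 and 6, against 8, 7, 7 and 6 in untreated cells 1 to 4. In 1 random thinning of each single-cell library to 1018815 counts, DASHed cells 1 to 4 held 8, 6, 6 and 6 and untreated cells 1 to 4 held 8, 7, 6 and 6.

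Of 77 other genes of the pathway, in 8 lists chosen by function, 59 passed the expression filter in mini-bulk. There 7 rose and 13 fell, against 9.9% and 19.8% of all tested genes, and their median log2 fold change was 0.19, beside 0.03 over all genes. With the GC trend removed none rose and 3 fell. The 3 were PIK3C2A, EIF4E and EIF4B, so the other 17 of the 20 calls were lost on that scale. Without the first untreated library 11 of 56 tested listed genes passed, beside 1417 of all 8518. On total counts alone 43 rose and 3 fell, with a median of 2.19 beside 2.04 over all genes. Of the 17 genes taken from the lists by size of change, 9 kept their call whichever library was left out. The other 8 (among them PIK3C3, ERBB2, INPPL1, AKT1S1, MLST8, PRKAG1 and GSK3A) lost it without at least 1 library. Of the 17, calls were lost for 3 without the first and for 3 without the second DASHed library. Calls were lost for 6 and not tested for 2 without the first untreated library, and lost for 4 and not tested for 2 without the second.

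**Figure D5:**
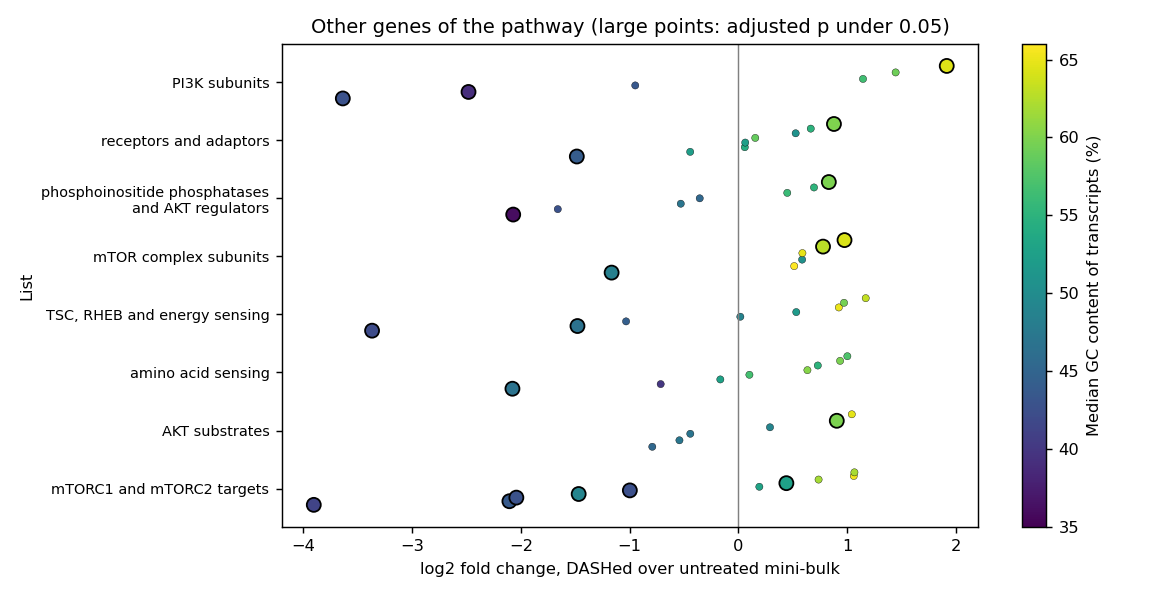
Log2 fold change of DASHed over untreated mini-bulk libraries for the 59 tested genes of the 8 pathway lists, with TMM scaling, where the colour is the median GC content of the transcripts (%) and large points passed the threshold. The 13 genes that fell lie at left, mostly in dark colours (GC-poor), and the 7 that rose at right, mostly in light colours, and on total counts alone 43 of the 59 rose.

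Among other PI3K subunits 1 of 6 tested genes rose and 2 fell (median 0.10). PIK3R2, a second regulatory subunit, rose (log2 fold change 1.92, SE 0.51, edgeR adjusted p = 0.0214), but 87.3% of its exonic bases are shared with the overlapping gene AC007192.1, so its value is uncertain. It had 58.0 and 87.1 CPM in the DASHed libraries, against 5.69 and 26.2 CPM in the untreated ones, and the log2 fold change was 1.11 without the first and 3.16 without the second untreated library. PIK3C2A, a class II kinase, fell by 3.64 in log2 (SE 0.30, adjusted p = 9.2e-05) and stayed past the threshold with the GC trend removed (−2.30, adjusted p = 0.0025). PIK3C3, the class III kinase of autophagy and vesicle traffic, fell by 2.48 (SE 0.67, adjusted p = 0.0234), and stood at −0.71 (adjusted p = 0.725) with the trend removed. Its log2 fold change was −3.32 without the first and −1.84 without the second DASHed library. The DASHed libraries held 11 and 9 estimated counts of PIK3C2A, and 7.1 and 2 of PIK3C3.

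Of the receptors and adaptors, 1 of 8 rose and 1 fell (median 0.11). The receptor ERBB2 rose by 0.88 (SE 0.26, edgeR adjusted p = 0.0311), and MET, the receptor of hepatocyte growth factor, fell by 1.49 (SE 0.18, adjusted p = 0.000682). On total counts alone MET stood at 0.52. The phosphatases and AKT regulators gave 1 of 7 each way (median −0.35). INPPL1, a phosphoinositide phosphatase, rose by 0.83 (SE 0.25, adjusted p = 0.0357).

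The other mTOR complex subunits gave 2 of 6 higher and 1 lower (median 0.59). AKT1S1, an AKT substrate that binds RPTOR, rose by 0.98 (SE 0.21, edgeR adjusted p = 0.00873), and MLST8, a subunit of both complexes, by 0.78 (SE 0.26, adjusted p = 0.0488). TTI1, which helps assemble the complexes, fell by 1.17 (SE 0.25, adjusted p = 0.00887) and stood at 0.85 on total counts alone. In the list of TSC, RHEB and energy sensing 2 of 8 fell (median 0.28). PRKAA1, a catalytic subunit of AMPK, fell by 3.37 (SE 0.47, adjusted p = 0.00139), and PRKAG1, a regulatory subunit of AMPK, fell by 1.48 (SE 0.43, adjusted p = 0.0292). The fall of PRKAA1 rests on 6.1 and 3 estimated counts in the DASHed libraries. PRKAG1 stood at 0.56 on total counts alone and is uncertain, as it shares 12.7% of its exonic bases with an antisense gene.

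Among the amino acid sensing genes 1 of 8 fell (median 0.37). LAMTOR5, a subunit of the lysosomal Ragulator complex, fell by 2.08 (SE 0.47, edgeR adjusted p = 0.0113) and shares 17.5% of its exonic bases with an antisense gene. GSK3A, a kinase that AKT inhibits, rose by 0.91 (SE 0.24, adjusted p = 0.0202) as 1 of 6 AKT substrates (median −0.075), and shares 11.6% of its exonic bases with another gene. The list of targets of mTOR complexes 1 and 2, which also holds genes further downstream such as EIF4E, gave 1 of 10 higher and 5 lower (median −0.40). EIF4E, the cap-binding factor that the complex 1 target EIF4EBP2 holds back, fell by 3.90 (SE 0.39, adjusted p = 0.000267) and by 2.37 with the GC trend removed (adjusted p = 0.0121). EIF4EBP2 fell by 2.11 (SE 0.23, adjusted p = 0.000438) and stood at −0.90 with the GC trend removed (adjusted p = 0.0559). The S6 kinase gene RPS6KB1 fell by 2.04 (SE 0.38, adjusted p = 0.00515) and stood at −0.71 with the trend removed (adjusted p = 0.403). EIF4E and RPS6KB1 are uncertain, with 11.0% and 12.1% of their 31-base words in other genes. The DASHed mini-bulk libraries held 5 and 5.2 estimated counts of EIF4E, 19 and 9 of RPS6KB1, and 12 and 5 of LAMTOR5.

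The pattern over the 12 libraries was compared with that of 4041 genes with a mean of at least 50 counts, as Pearson's r of log2(TMM-scaled CPM + 1) deviations from the group means. The libraries share cell line, protocol and possibly cells, so r is a description. Most like MTOR were PLXNB1 (0.904), DLGAP4 (0.902) and FAM83G (0.895). Those most like RPTOR were ACTN1 (0.980), FBRSL1 (0.976) and USP5 (0.974). For TSC2 they were DPF2 (0.994), DAP (0.993) and CAPZB (0.990). DPF2, for example, had 224, 654, 360 and 103 estimated counts in DASHed cells 1 to 4 and 191, 799, 362 and 69.3 in untreated cells 1 to 4, beside 264, 556, 376 and 95.4 for TSC2 in DASHed cells 1 to 4 and 198, 795, 354 and 71.1 in untreated cells 1 to 4.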

How the data were processed

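The 12 MATQ-seq libraries of HCT116 total RNA come as 1 table of estimated counts that the authors deposited. The submitters' processing notes name kallisto 0.46.2. The sources used here do not give the build, the annotation or the handling of strand. Between 31.2 and 55.9% of a library's nonzero values are fractional. Of 57134 row names, 56860 match 1 GENCODE v29 gene (GRCh38), which gave coordinates, sequences, GC content and shared bases. A gene is called uncertain where at least 10% of its exonic bases or 31-base words are shared.

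Estimated counts were rounded and tested in mini-bulk with edgeR 4.0.16 (R 4.3.3): TMM, its default filter on low counts and Benjamini-Hochberg adjustment, called at 0.05, with DESeq2 1.42.0 as an alternative. The GC trend was removed as per-library offsets from a lowess smooth (span 0.3) of log counts on GC content. Single cells carry no test. Genes with at least 20 summed counts entered their reference. Counting error is all that intervals and floors cover. The edgeR step was tested on simulated data.

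The 9 genes, the lists and the tests were chosen with earlier results of these data known. From each list up to 3 genes of largest fold past the threshold are named, and for the 3 genes of highest mean count the 3 most alike. A listed gene that this rule took is left unnamed and its values are not reported here. The GC ranges and the range of 20 to 60 counts were chosen after seeing the data. Groups share replicate numbers. Same-numbered single cells correlated at 0.916 to 0.923 and others at −0.374 to −0.238, so the data, though not the labels, pair the single cells by number.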

Additional observations from a re-analysis of the deposited data

Results flagged for a closer look

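Within a group of 4 cells, 5 levels stood apart from the other 3 by more than Dixon's 95% critical value. Chance meets this rule in about 1 of 20 groups where values are normally distributed. A gene with counts in 1 of the 4 cells meets it at any level, as PIK3R1 did in each group. The share of all genes that meet the rule was not determined, and both groups may hold the same cells. PIK3R1 reached 39.1 CPM in DASHed cell 1 and 46.8 CPM in untreated cell 1, with 0 in the other cells. PIK3CB reached 24.1 CPM in untreated cell 3. RPTOR reached 196 CPM in untreated cell 3, beside 362 CPM in DASHed cell 3. RICTOR reached 19.2 CPM in untreated cell 2, beside 1.22 CPM in DASHed cell 2.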

How the results depend on the processing

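In mini-bulk 2997 of all tested genes passed the threshold. The count was 6856 on total counts alone (6718 higher and 138 lower), 1790 with DESeq2, 5403 with the replicate block, 395 with the GC correction and 1570 with both, and 1417 to 3450 with 1 library left out (1417 without untreated library 1, 1426 without untreated library 2). Of the 9 pathway genes 6 passed, and 1 did with the GC correction, 1 with the block and the correction and 1 to 6 with 1 library left out (1 without either untreated library). Of the 77 listed genes 20 passed, against 46 on total counts alone, 11 with DESeq2, 37 with the block, 3 with the GC correction, 13 with both and 11 to 25 with 1 library left out (11 without untreated library 1). With the block 8 of the 8 tested pathway genes passed, which adds MTOR (0.40, adjusted p = 0.00047) and PIK3CB (−0.90, adjusted p = 0.0188). In the labels mini-bulk libraries share only a number. Same-numbered ones correlated at 0.474 over 8918 genes and different-numbered ones at −0.474, a mirror value that 2 libraries per group impose. Same-direction calls lost among the 9 genes and the 17 taken from the lists numbered 10 with DESeq2 and 17 with the GC correction.

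Directions that turned on total counts alone were those of PIK3CB (1.14), PIK3R1 (0.55), MET (0.52), TTI1 (0.85) and PRKAG1 (0.56) in mini-bulk, and of PIK3CB (0.67) and PIK3R1 (1.19) in single cells. With the GC correction, without and with the block, they were those of PIK3CB (0.82 and 0.80), PIK3R1 (0.29 and 0.28), AKT2 (−0.060 and −0.058), TSC2 (−0.015 and −0.019) and MLST8 (−0.076 and −0.10). MTOR turned without untreated mini-bulk library 1 (−0.030, and 0.58 at most with 1 library left out). In single cells PIK3CB ranged between −2.23 and 1.57 with 1 cell left out, turned without untreated cell 3 (1.57) and against genes of like GC content (0.80), and AKT2 turned without DASHed cell 3 (−0.024, with 1.63 the highest with 1 cell left out). PIK3R1, whose interval includes 1, turned against genes of like GC content (1.26), between same-numbered cells (0.31) and without DASHed cells 2, 3 or 4 (0.20 to 0.50). TSC2 turned against genes of like GC content (−0.27) and of like count (−0.015), and MTOR against genes of like count (−0.00048). Against genes of like count 3 of 8 genes were above the reference, in place of 5. On the CPM scale of all 12 libraries the summed level of the 9 genes, DASHed over untreated, was 1.75 in mini-bulk and 1.56 in single cells. It was 5.98 and 4.27 on total counts alone. Apart from the construction of each setting, causes were not tested. Counts under about 20 limit PIK3CA, PIK3R1 and RICTOR, and PIK3CB in the first DASHed mini-bulk library. In both DASHed mini-bulk libraries they also limit PIK3C2A, PIK3C3, PRKAA1, LAMTOR5, EIF4E and RPS6KB1, among the genes named by size.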

Other observations

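These genes were chosen after their values were seen. TSC1, the partner of TSC2 in the TSC complex, was highest in the same cell as TSC2 in both groups. It had 7.1, 429, 153 and 25.4 estimated counts in DASHed cells 1 to 4, against 26.3, 1003, 179 and 47.8 in untreated cells 1 to 4. The lowest cell differed between the genes, cell 1 for TSC1 and cell 4 for TSC2. For 77.2% of 13509 genes the highest cell had the same number in both groups. The share of genes that were highest in the same cell as TSC2 was not determined. In mini-bulk TSC1 had 37.9 and 18.6 CPM in DASHed libraries and 24.8 and 23.3 CPM in untreated ones, a log2 fold change of 0.02 (SE 0.36, edgeR adjusted p = 0.972).

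SESN2, a stress-induced inhibitor of mTOR complex 1, had 26 and 42 counts in DASHed mini-bulk, against 17 and 38 in untreated mini-bulk. It had none in any of the 8 cells, as had 1.55% of all genes tested in mini-bulk. LAMTOR3, a Ragulator subunit, had none in the DASHed mini-bulk libraries, against 12.4 and 9.6 in the untreated ones. It is GC-poor (37.7%) and did not pass the expression filter. For 71.7% of tested genes the DASHed and untreated mini-bulk libraries did not overlap.

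The list of mTOR targets and genes further downstream held others past the threshold beside those named by size. RPS6, a ribosomal protein that S6 kinase phosphorylates, fell (log2 fold change −0.997, SE 0.21, edgeR adjusted p = 0.00836) and stood at 0.37 with the GC trend removed (adjusted p = 0.405). EIF4B, a cofactor of translation initiation, fell by 1.47 (SE 0.17, adjusted p = 0.000611) and by 1.12 with the trend removed (adjusted p = 0.00448). Both stood above 0 on total counts alone (1.03 for RPS6 and 0.56 for EIF4B) and share over 10% of their bases or words with other genes. LARP1, which binds mRNAs of the translation machinery, rose by 0.44 (SE 0.15, adjusted p = 0.0494) and stood at 0.26 with the trend removed (adjusted p = 0.407).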
